A study of Mus musculus with 12 samples.

Results

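Annexins and S100 proteins form families of mostly calcium-binding proteins. The 10 of their genes described in mouse liver were *Anxa1*, *Anxa2*, *Anxa3*, *Anxa5*, *S100a4*, *S100a6*, *S100a8*, *S100a9*, *S100a10* and *S100a11*. The genes were taken by symbol from the deposited expression tables, in which all 10 were found among 41743 genes. They comprised 4 annexins and 6 S100 genes, and among the latter *S100a8* and *S100a9*, which are abundant in neutrophils, were set against the other 8, which are expressed by epithelial, stromal and myeloid cells. RNA of whole livers from 12 female mice aged 3 to 4 months was sequenced, with 3 mice in each of 4 groups.

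YAP1 KO mice had both copies of *Yap1* deleted by *Foxa3*-Cre, which acts in the foregut endoderm and so in hepatocytes and bile duct cells. Whether this Cre acts in other liver cells was not examined here. The YAP1 KO mice carried a ROSA-stop-EYFP reporter on the C57BL/6 background. YKTH mice (YAP1 KO TAZ heterozygote) also had both copies of *Yap1* deleted by *Foxa3*-Cre, but came from a separate floxed line. They lacked 1 copy of *Wwtr1*, the TAZ gene, on a mixed C57BL/6-FVB background. Each model was compared with 3 WT littermates of its own background, called WT (C57BL/6) and WT (mixed). The comparisons address which genes change when the liver develops without *Yap1*, with *Wwtr1* intact or reduced. The 2 models differ in background, reporter and floxed *Yap1* line as well as in *Wwtr1*, so these cannot be told apart in any difference between them.

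Annexins bind acidic membrane phospholipids when calcium rises, and take part in membrane repair, vesicle traffic and the clearing of dying cells. Most S100 proteins, though not all, are dimers that change shape on binding calcium and then dock onto target proteins. Several S100 proteins dock onto annexins: S100A10 holds annexin A2 in a complex at the cell surface that binds plasminogen and its activator, and S100A11 binds annexin A1. S100A8 and S100A9 form calprotectin, a major cytosolic protein of neutrophils that is released in inflammation and signals through Toll-like receptor 4.

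Libraries sum to the same total in TPM (transcript abundance scaled to a fixed library total and corrected for gene length). The number of reads behind each value is therefore unknown, and the spread among 3 mice is the only error available. *Yap1* ranged over 28.2 to 30.5 TPM in WT (C57BL/6) livers, 1.67 to 3.72 TPM in YAP1 KO, 31 to 33.2 TPM in WT (mixed) and 8.63 to 11.5 TPM in YKTH livers. *Wwtr1* was at 11.5 to 14.1 TPM in the livers labelled YKTH and at 7.73 to 8.38 TPM in their littermates. It was at 13.3 to 16.7 TPM in YAP1 KO and at 6.26 to 6.83 TPM in WT (C57BL/6) livers. Since *Wwtr1* was higher in both models, a comparison with WT livers cannot show whether 1 copy was lost. YKTH is used here as the labels give it. In whole liver, a gain of cells of one type and more RNA per cell cannot be told apart.

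The genes lie on 4 chromosomes of GRCm38. *Anxa1* is on chromosome 19 (20373428 to 20390944), *Anxa2* on chromosome 9 (69453620 to 69491795), *Anxa3* on chromosome 5 (96793339 to 96845966) and *Anxa5* on chromosome 3 (36448923 to 36475894). The 6 S100 genes are on chromosome 3 too, *S100a4*, *S100a6*, *S100a8* and *S100a9* between 90603771 and 90695721, and *S100a11* and *S100a10* between 93520488 and 93564643. All are protein-coding genes. Opposite-strand *Gm16144* overlaps exons of *Anxa2*, and same-strand genes overlap exons of *Anxa3* (*Gm42603*) and *S100a4* (*Gm42674*), so reads in the shared exons cannot be assigned with certainty. *Gm42674* was at 0 TPM in every library. *S100a11* has 5 processed pseudogenes with at least 90% identity over at least 30% of its transcript. They are not among the genes with deposited values, and the level of *S100a11* is uncertain to the extent that their reads were shared.

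The sequence just upstream of the start is shown for 4 genes, *Anxa2* and *S100a11* because they changed most, and *S100a8* and *S100a9* because they form the neutrophil pair. RefSeq promoter entries on GRCm38.p6 were found for 8 of the 10 genes. In the 4 windows shown, bases that lie in an annotated exon of the gene were left off. Capitals mark the letters TGANTCA, the AP-1 motif, searched on both strands together with the TEAD motif (GGAATG) and the C/EBP motif (TTNCGNAA). TEAD factors are the partners through which YAP and TAZ bind DNA.
Anxa2 (chr9:69453433-69453619, plus strand): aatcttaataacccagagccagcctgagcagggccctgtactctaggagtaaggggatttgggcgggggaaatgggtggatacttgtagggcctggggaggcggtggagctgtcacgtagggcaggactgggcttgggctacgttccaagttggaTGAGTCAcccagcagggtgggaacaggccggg
S100a11 (chr3:93520246-93520487, plus strand): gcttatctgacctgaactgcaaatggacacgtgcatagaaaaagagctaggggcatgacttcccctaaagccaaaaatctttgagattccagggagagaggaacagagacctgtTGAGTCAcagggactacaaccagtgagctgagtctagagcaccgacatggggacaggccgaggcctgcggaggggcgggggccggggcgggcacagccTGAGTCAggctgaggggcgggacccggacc
S100a8 (chr3:90668821-90668977, plus strand): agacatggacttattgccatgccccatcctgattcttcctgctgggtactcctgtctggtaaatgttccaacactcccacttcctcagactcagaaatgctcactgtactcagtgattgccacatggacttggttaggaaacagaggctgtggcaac
S100a9 (chr3:90695722-90695971, minus strand): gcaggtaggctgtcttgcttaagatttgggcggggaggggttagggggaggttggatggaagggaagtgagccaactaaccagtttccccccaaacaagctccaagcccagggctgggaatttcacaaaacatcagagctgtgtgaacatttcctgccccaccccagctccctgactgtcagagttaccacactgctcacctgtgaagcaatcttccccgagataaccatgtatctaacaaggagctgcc

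The AP-1 letters occurred once upstream of *Anxa2*, beginning 95 bases before the RefSeq start, and 2 times upstream of *S100a11*, beginning 136 and 38 bases before it. Among the 32851 RefSeq promoters, 5.14% of windows of the *Anxa2* length and 6.64% of windows of the *S100a11* length held these letters at least once. Neither *S100a8* nor *S100a9* held any of the 3 motifs in the window shown. The AP-1 letters were also absent from the windows of *Anxa1*, *Anxa5*, *S100a4* and *S100a6*. The TEAD letters were found in 1 of the 8 windows, that of *Anxa1*, beginning 236 bases before the RefSeq start. Among all promoters, 8.66% held them in a window of that length. The *Anxa1* window lies inside the annotated gene and overlaps an exon of it. These matches describe letters in a short window and are not binding data.

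All 10 genes were higher in YAP1 KO than in WT (C57BL/6) livers. By limma on log2(scaled TPM + 1) with Benjamini-Hochberg adjustment over all tested genes, 10 of 10 passed an adjusted p of 0.05 in the upward direction, where 18.8% of 11704 tested genes did and 18.0% passed downward. In YKTH livers 9 of 10 passed in the upward direction, where 19.2% of 11741 tested genes did and 19.0% passed downward, and *S100a9* did not pass (adjusted p = 0.0567). The 10 genes were chosen with earlier results of these data known, so these shares are a description and not a test of the set. The median log2 fold change of the 10 genes was 1.71 in YAP1 KO and 1.41 in YKTH livers, against a median of -0.04 over all tested genes in each comparison. The TPM of the groups did not overlap for any of the 10 genes in either comparison, which was so, in the upward direction, for 47.5% and 44.4% of tested genes. An exact permutation test of 3 mice against 3 cannot give a p below 0.1, the value each gene had in both comparisons.

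**Figure D1:**
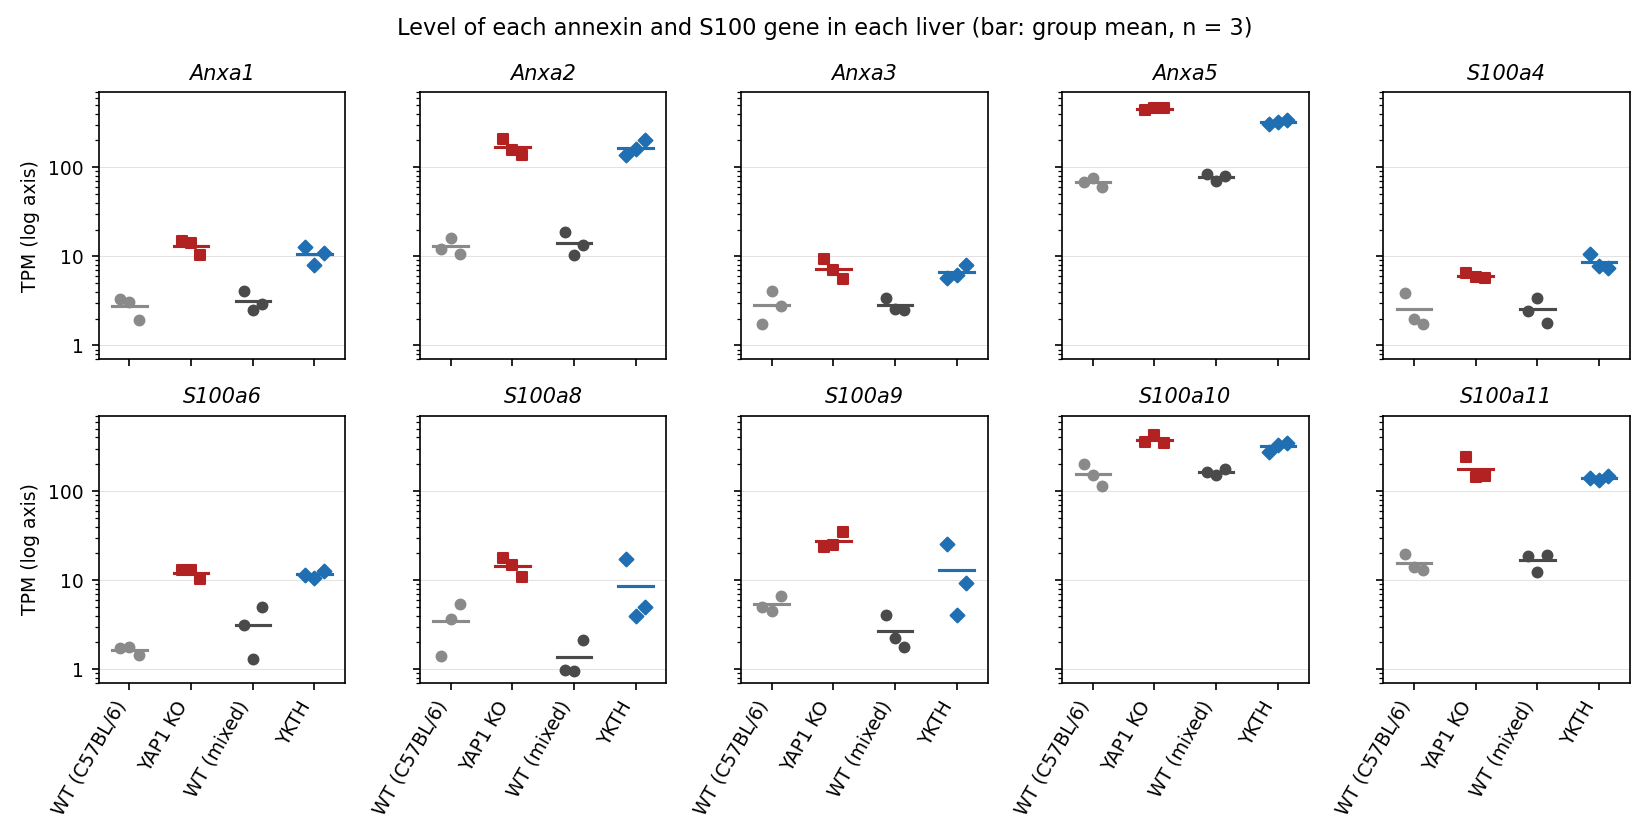
TPM of the 10 genes in each of the 12 livers, on a log axis, with 3 points per group and a bar at the group mean. The points of each model lie above those of its WT littermates in every panel, most widely for Anxa2 and S100a11, and the YKTH points of S100a8 and S100a9 are spread apart by 1 high liver.

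*Anxa2* and *S100a11* changed most in both models. *Anxa2*, the membrane-binding partner of S100A10, was at 12.1, 16.1 and 10.7 TPM in WT (C57BL/6) livers, against 208, 154 and 138 TPM in YAP1 KO livers. In the mixed background the WT livers had 18.6, 10.4 and 13.4 TPM, against 139, 159 and 202 TPM in YKTH livers. Each knockout liver was far above every WT liver, and the livers of the 2 models covered much the same range. The ratio of mean TPM was 12.9 in YAP1 KO and 11.8 in YKTH livers, with log2 fold changes of 3.24 (standard error 0.16, limma adjusted p = 6.93e-06) and 3.18 (standard error 0.21, limma adjusted p = 2.77e-05).

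*S100a11*, which encodes the dimer that docks onto annexin A1, was at 19.6, 14.1 and 12.9 TPM in WT (C57BL/6) and at 243, 144 and 146 TPM in YAP1 KO livers. WT (mixed) livers had 18.5, 12.3 and 19.3 TPM and YKTH livers 141, 133 and 149 TPM. One YAP1 KO liver, LM74, stood above the rest, and the other 5 knockout livers lay close together. The log2 fold changes were 3.06 (standard error 0.21, limma adjusted p = 3.58e-05) and 2.71 (standard error 0.17, limma adjusted p = 1.78e-05).

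*Anxa5*, a phosphatidylserine-binding annexin known as a probe for dying cells, was among the more abundant of the 10 genes and varied little within groups. It was at 68, 75.2 and 59.9 TPM in WT (C57BL/6) and at 444, 457 and 457 TPM in YAP1 KO livers. In the mixed set the values were 84.1, 69.6 and 79.5 TPM in WT and 303, 319 and 342 TPM in YKTH livers. The YAP1 KO livers were all above the YKTH livers in TPM, but the share of all genes separated in this way was not counted. The difference between the 2 models did not pass the limma test for *Anxa5*. The log2 fold changes were 2.37 (standard error 0.12, limma adjusted p = 6.33e-06) and 1.72 (standard error 0.12, limma adjusted p = 3.14e-05).

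*Anxa1*, whose product restrains inflammation through formyl peptide receptors, was at 3.35, 3.11 and 1.95 TPM in WT (C57BL/6) and at 14.8, 14.1 and 10.4 TPM in YAP1 KO livers. WT (mixed) livers had 4.12, 2.48 and 2.94 TPM and YKTH livers 12.7, 8.09 and 10.8 TPM. All knockout livers were above all WT livers, and those of the 2 models overlapped. On the log2 scale *Anxa1* rose by 1.59 (limma adjusted p = 0.000535) and 1.20 (limma adjusted p = 0.00139).

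*Anxa3* was the annexin of the 4 with the smallest changes, from 2.88 ± 1.16 to 7.27 ± 1.9 TPM in the C57BL/6 set (mean ± SD, n = 3 mice) and from 2.84 ± 0.514 to 6.65 ± 1.19 TPM in the mixed set (SD, n = 3). On the log2 scale *Anxa3* rose by 0.82 (limma adjusted p = 0.0247) and 0.73 (limma adjusted p = 0.00838). In YAP1 KO livers this call was lost in 5 of 13 alternatives. It was lost without any one of WT (C57BL/6) replicates LM75 and LM193 and YAP1 KO replicates LM74 and LM189, with adjusted p from 0.0532 to 0.0846, and with no filter on low genes (0.053).

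*S100a10*, which encodes the light chain of the annexin A2 complex, was the most abundant of the 10 genes in WT livers and changed least in YKTH livers. It was at 203, 150 and 114 TPM in WT (C57BL/6) and at 352, 427 and 344 TPM in YAP1 KO livers. WT (mixed) livers had 165, 150 and 175 TPM and YKTH livers 276, 328 and 350 TPM. The groups did not overlap, and the log2 fold changes were 0.93 (limma adjusted p = 0.0124) and 0.63 (limma adjusted p = 0.0104).

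*S100a6*, or calcyclin, a gene of proliferating and fibroblast-like cells, was at 1.72, 1.76 and 1.43 TPM in WT (C57BL/6) and at 13.1, 13 and 10.2 TPM in YAP1 KO livers. WT (mixed) livers were more spread, at 3.18, 1.29 and 5.01 TPM, and YKTH livers had 11.5, 10.7 and 12.8 TPM. The 2 models overlapped. On the log2 scale *S100a6* rose by 2.03 (limma adjusted p = 3.52e-05) and 1.44 (limma adjusted p = 0.00872).

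*S100a4*, known as fibroblast-specific protein and also expressed by myeloid cells, was at 3.91, 2 and 1.75 TPM in WT (C57BL/6) and at 6.53, 5.83 and 5.65 TPM in YAP1 KO livers. WT (mixed) livers had 2.43, 3.4 and 1.78 TPM and YKTH livers 10.6, 7.77 and 7.41 TPM. The YKTH livers were all higher in TPM than the YAP1 KO livers, and how many of all genes did so was not counted. The difference between the models did not pass the limma test for *S100a4*. The log2 fold changes were 0.74 (limma adjusted p = 0.0368) and 1.19 (limma adjusted p = 0.00184). In YAP1 KO livers the call was kept in 6 of 13 alternatives, with adjusted p from 0.0018 to 0.12, and was lost without any one of WT (C57BL/6) replicates LM192 and LM193 and the 3 YAP1 KO replicates LM74, LM189 and LM191.

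**Figure D2:**
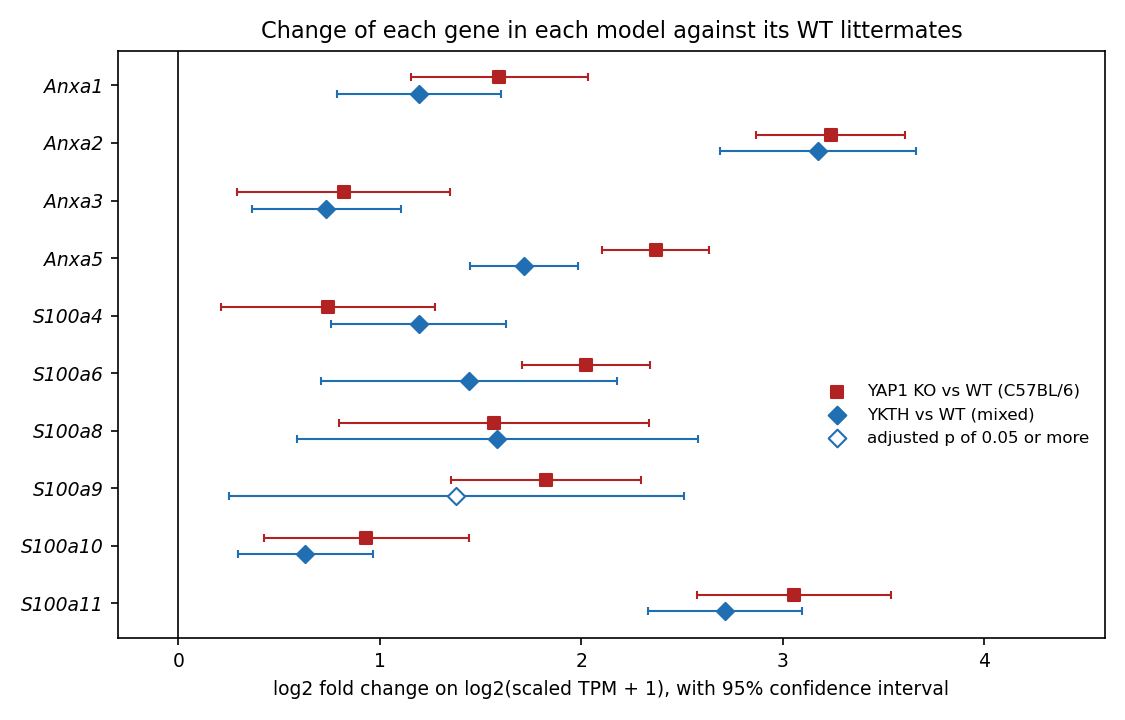
Log2 fold change of each gene in YAP1 KO (squares) and YKTH livers (diamonds) against their own WT littermates, with 95% confidence intervals from limma, n = 3 mice per group. The intervals of all 10 genes lie above 0 in both models, and the open diamond marks S100a9 in YKTH livers, whose adjusted p was 0.0567.

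The neutrophil pair behaved evenly in YAP1 KO livers and unevenly in YKTH livers. *S100a8* was at 1.41, 3.71 and 5.36 TPM in WT (C57BL/6) and at 17.8, 14.9 and 10.7 TPM in YAP1 KO livers. WT (mixed) livers had 0.972, 0.961 and 2.14 TPM, and YKTH livers had 17.1 TPM in LM225 and 3.93 and 4.98 TPM in LM250 and LM251. The log2 fold changes were 1.57 (standard error 0.33, limma adjusted p = 0.00783) and 1.58 (standard error 0.43, limma adjusted p = 0.0213).

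*S100a9* was at 5.03, 4.47 and 6.72 TPM in WT (C57BL/6) and at 23.4, 25 and 34.5 TPM in YAP1 KO livers. WT (mixed) livers had 4.07, 2.24 and 1.79 TPM, and YKTH livers had 25.2 TPM in LM225 and 4.12 and 9.27 TPM in LM250 and LM251. The lowest YKTH liver, at 4.12 TPM, was barely above the highest WT (mixed) liver, at 4.07 TPM. The log2 fold change in YAP1 KO livers was 1.83 (standard error 0.20, limma adjusted p = 0.000385), and in YKTH livers it was 1.38 (standard error 0.49, limma adjusted p = 0.0567), with a 95% interval from 0.25 to 2.51.

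YKTH replicate LM225 carried much of the pair's level. Without it, the log2 fold change of *S100a8* in YKTH livers was 1.03 (limma adjusted p = 0.0173) and that of *S100a9* was 0.80 (limma adjusted p = 0.0951). Without YKTH replicate LM250 that of *S100a9* was 1.91 (limma adjusted p = 0.00871). The *S100a8* call was lost without WT (mixed) replicate LM226 (adjusted p = 0.0707) or LM227 (adjusted p = 0.0624).

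Summed, *S100a8* and *S100a9* came to 41.2, 40 and 45.2 TPM in YAP1 KO and 6.44, 8.18 and 12.1 TPM in WT (C57BL/6) livers. In YKTH livers the sum was 42.3 TPM in LM225, at the level of YAP1 KO livers, and 8.05 and 14.2 TPM in LM250 and LM251, and it was 5.05, 3.2 and 3.92 TPM in WT (mixed) livers. The other 8 genes summed to 899, 971 and 1083 TPM in YKTH livers, with LM225 the lowest, and to 300, 252 and 300 TPM in WT (mixed) livers. They came to 1118 to 1291 TPM in YAP1 KO and 205 to 314 TPM in WT (C57BL/6) livers. As a share of those 8 genes the pair stood at 3.5% ± 0.472 (SD, n = 3) in YAP1 KO and 3.67% ± 1.99 (SD, n = 3) in WT (C57BL/6) livers, while in YKTH livers it was 4.71% in LM225 and 0.829% and 1.32% in the others, against 1.42% ± 0.229 (SD, n = 3) in WT (mixed) livers.

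The neutrophil genes were low, and their members did not follow the pair alike. Of 14 neutrophil genes listed, 8 stayed under 1 TPM in every library, and *Ly6g*, a defining surface marker, was at 0 in 11 of 12 libraries. Of the 4 tested in YAP1 KO livers 3 passed upward, and of the 3 tested in YKTH livers 1 did, or 2 without scaling. The summed list ran from 2.53 to 6.04 TPM in WT (C57BL/6), from 17.8 to 41.1 TPM in YAP1 KO, from 2.9 to 4.41 TPM in WT (mixed) and from 9.36 to 35.2 TPM in YKTH livers. *Prtn3*, a protease of neutrophil granules singled out after its values were seen, was at 25.9 TPM in YAP1 KO replicate LM74 and at 17.4 TPM in LM225. Without *Prtn3* the sums were 12.3 to 16.3 TPM in YAP1 KO livers and 17.8, 4.94 and 7.03 TPM in YKTH replicates LM225, LM250 and LM251. *Retnlg*, another gene of neutrophils chosen after its values were seen, was at 3.56 TPM in LM225 and at 0.403 and 0.644 TPM in the other YKTH livers. *Mpo*, the peroxidase of neutrophil granules, also chosen after its values were seen, ran the other way, at 0.252 TPM in LM225 and 1.06 and 1.82 TPM in LM250 and LM251. LM225 was the highest YKTH liver for the pair and for both sums, though not for each gene, and the part of neutrophil number in the *S100a8* and *S100a9* values was not tested.

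**Figure D3:**
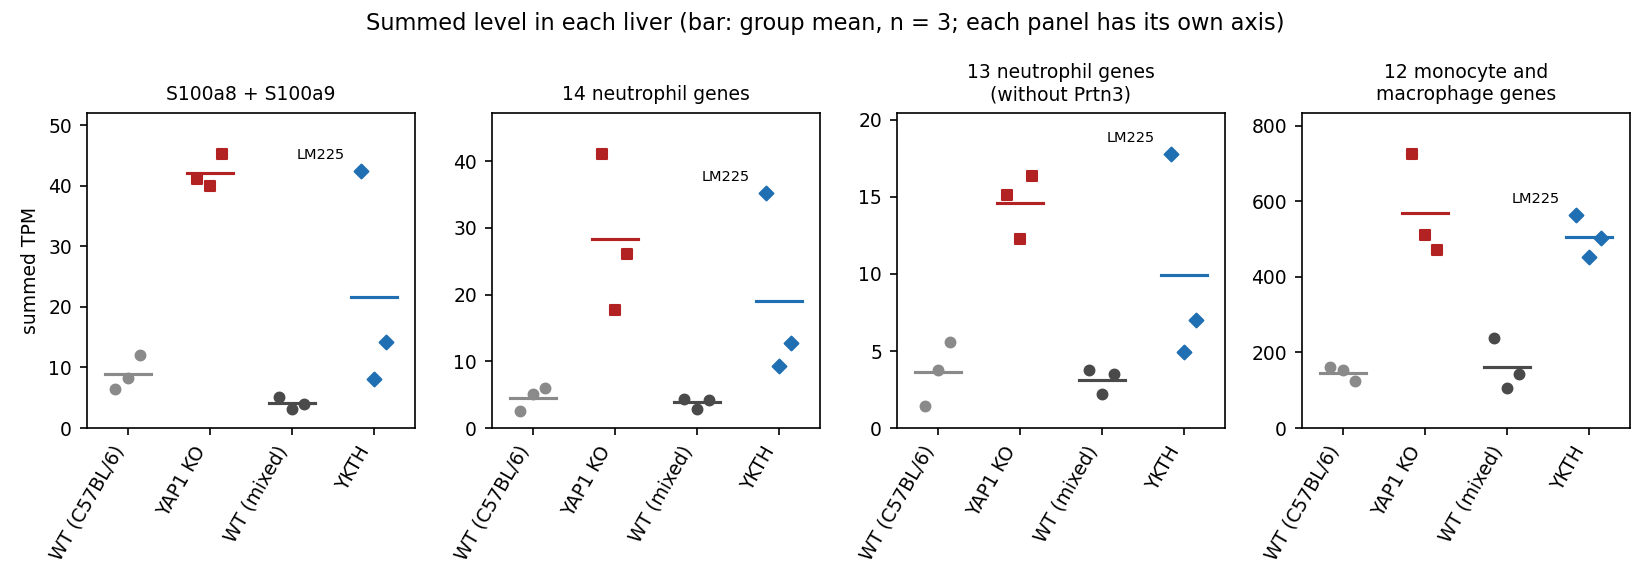
Summed TPM in each liver of S100a8 and S100a9, of 14 neutrophil genes, of 13 of them without Prtn3, and of 12 monocyte and macrophage genes, with a bar at each group mean. YKTH replicate LM225 is marked and lies apart from the other YKTH livers in the first 3 panels. The monocyte and macrophage sums of the 3 YKTH livers, mostly from Lyz2, run from 452 to 562 TPM, and LM225 is the highest there too.

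The genes of other cell types that express annexins and S100 proteins moved as well. All 12 monocyte and macrophage genes passed the limma test upward in YAP1 KO livers and 9 of 10 tested did in YKTH livers, with *Cx3cr1*, the fractalkine receptor, at log2 fold changes of 2.64 and 1.97. Their summed level was 125 to 161 TPM in WT (C57BL/6), 472 to 724 TPM in YAP1 KO, 106 to 238 TPM in WT (mixed) and 452 to 562 TPM in YKTH livers. Most of it came from *Lyz2*, a lysozyme gene, named after its values were seen. Without *Lyz2* the sums were 46.1 to 59.7, 134 to 231, 40.3 to 78.7 and 162 to 225 TPM in the same order of groups. LM225 was the highest YKTH liver for the sum with and without *Lyz2* and for *Ly6c2*, *Ccr2*, *Cx3cr1* and *Itgam*. These are the first genes of the list, and LM225 was not the highest for every gene. Of 9 Kupffer cell genes, 8 passed upward in each model, among them *Clec4f* (0.52 and 0.97), and they summed to 392 to 504, 1057 to 1493, 343 to 698 and 1510 to 1627 TPM in the same order of groups.

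Of 12 stellate cell and fibroblast genes, 8 passed upward and 1 downward in YAP1 KO livers and 7 upward in YKTH livers. Without scaling 10 and 8 passed upward and none downward. *Col1a1*, the main collagen of scars, led with log2 fold changes of 4.02 and 3.11. Their sums were 152 to 181, 466 to 609, 135 to 176 and 389 to 491 TPM. The authors reported that adult livers of both models had no intrahepatic bile ducts, by staining for a duct keratin. Among 10 biliary genes, 3 of the 7 tested passed upward in each model and 1 passed downward in YKTH livers. The list medians were 0.27 and 0.29. *Sox9*, a regulator of the biliary fate, rose by 2.10 and 1.69 on the log2 scale, whereas *Epcam*, an adhesion protein of duct cells, fell by 1.48 in YKTH livers and was at -0.35 in YAP1 KO livers (limma adjusted p = 0.436). The keratin genes of bile ducts did not pass upward, *Krt7* being under 1 TPM in every library and *Krt19* missing the threshold in both models (limma adjusted p = 0.736 and 0.139). The biliary sums were 38.9 to 68.1, 352 to 778, 52.8 to 75.4 and 131 to 245 TPM, mostly from *Spp1*, the osteopontin gene, named after its values were seen, and without it they were 12.8 to 19.1, 38.7 to 52.4, 13.9 to 28.7 and 36.6 to 46.9 TPM. The part of these cell types in the changes of the annexins and S100 genes was not tested.

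Of 6 mesothelial genes, 2 of 2 tested passed upward in YAP1 KO and 2 of 4 in YKTH livers, and the list summed to 1.14 to 2.68, 5.88 to 8.25, 2.71 to 4.89 and 7.21 to 15.4 TPM. Endothelial genes summed to 89 to 97.2, 85.3 to 129, 116 to 122 and 106 to 143 TPM, with 1 upward and 3 downward calls of 9 in YAP1 KO and 2 upward and 3 downward in YKTH livers, and without scaling 1 was downward in each model. No lymphocyte gene of 5 tested passed in YAP1 KO livers and 2 of 6 passed upward in YKTH livers, with sums of 8.04 to 22.7 TPM over all 12 livers. Erythroid and platelet genes gave 2 upward calls of 7 in YAP1 KO and 1 downward call of 6 in YKTH livers (none downward and 1 upward without scaling), with summed levels from 576 to 1901 TPM over the 12 livers. Hepatocyte genes summed to at least 79499 TPM in every library, as in the labelled tissue, and 4 and 3 of 9 tested passed downward in YAP1 KO and YKTH livers. Without scaling 3 and 2 passed downward, and 1 passed upward in YAP1 KO livers.

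S100A10 and annexin A2 work as a complex, and the balance of their transcripts differed between groups. The TPM ratio of *S100a10* to *Anxa2* was 16.8, 9.35 and 10.6 in WT (C57BL/6) and 1.7, 2.77 and 2.49 in YAP1 KO livers. In the mixed set it was 8.89, 14.4 and 13.1 in WT and 1.99, 2.07 and 1.74 in YKTH livers. The ratio was lower in every knockout liver than in any WT liver, since *Anxa2* rose by a larger factor than *S100a10*. For *S100a11* and *Anxa1*, the other annexin pair, the ratio was 4.54 to 6.6 in WT (C57BL/6), 10.2 to 16.4 in YAP1 KO, 4.49 to 6.56 in WT (mixed) and 11.1 to 16.5 in YKTH livers, and so moved the other way. The ratio of *S100a9* to *S100a8* ran from 0.838 to 4.19 over the 12 livers and overlapped between all groups. These ratios are descriptions with no test.

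**Figure D4:**
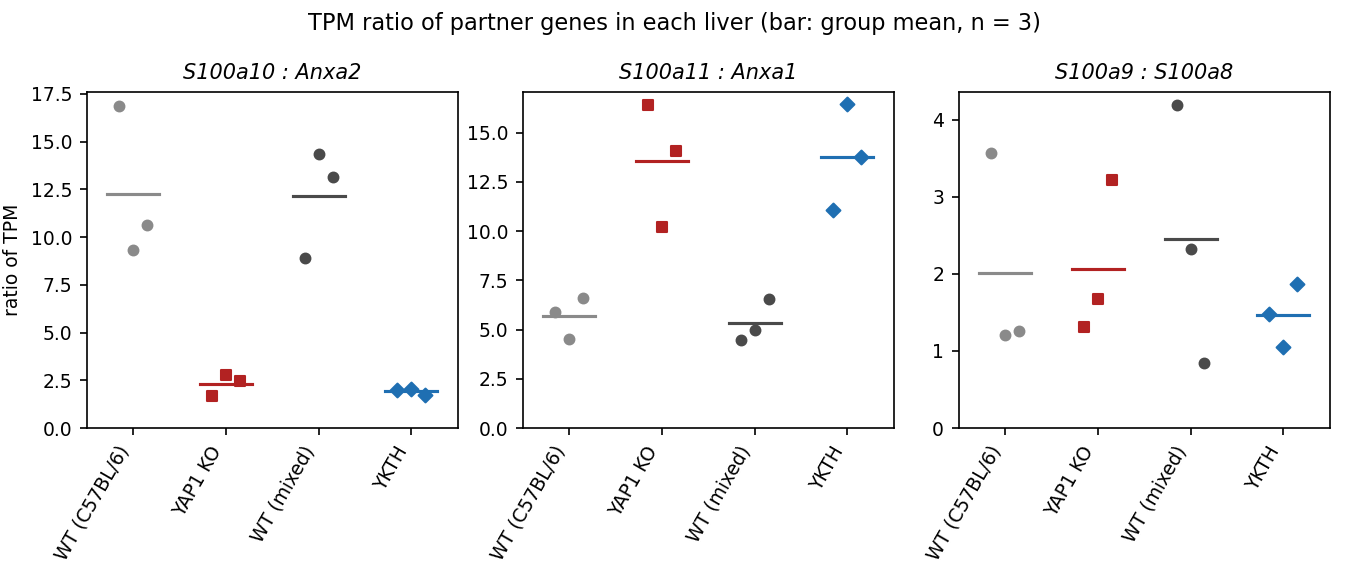
TPM ratio of S100a10 to Anxa2, of S100a11 to Anxa1 and of S100a9 to S100a8 in each liver, on linear axes from 0, with a bar at each group mean (n = 3). The first ratio is lower and the second higher in all 6 knockout livers than in the 6 WT livers, and the third overlaps between the groups.

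The order of the genes by mean TPM changed at the top. In both WT groups it ran *S100a10*, *Anxa5*, *S100a11* and *Anxa2*, with means of 156, 67.7, 15.5 and 12.9 TPM in WT (C57BL/6), and the ranges of *S100a11* and *Anxa2* overlapped. In YAP1 KO livers *Anxa5* (453 ± 7.66 TPM, SD, n = 3) stood above *S100a10* (375 ± 45.9 TPM, SD, n = 3) with no overlap, followed by *S100a11* and *Anxa2*, which overlapped. In YKTH livers *Anxa5* and *S100a10* overlapped, at 321 ± 19.9 and 318 ± 38.1 TPM (SD, n = 3). The other 6 genes were at most 34.5 TPM in any liver, and most neighbours among them overlapped.

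Between the WT groups none of the 10 genes passed the limma test, where 24 of 11126 genes (0.216%) did, and 2 of the 10 had an unadjusted p under 0.05, as did 5.83% of all tested genes. These were *S100a8* and *S100a9*, lower in WT (mixed) livers by log2 differences of -0.89 and -0.88 (limma adjusted p = 0.793 and 0.468). *S100a9* did not overlap between the WT groups, as was so for 11.7% of tested genes. The other 8 genes had log2 differences from -0.03 to 0.51.

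The difference between the models, the change in YAP1 KO minus that in YKTH livers, passed for none of the 10 genes, where 0.0658% of 12159 genes did. *Anxa5* was the only 1 of the 10 with an unadjusted p under 0.05, which 4.58% of all genes had, with a log2 difference of 0.65 (95% interval 0.29 to 1.01, limma adjusted p = 0.67). For *S100a4* the difference was -0.45 (95% interval -1.15 to 0.25), and for *S100a8* it was -0.01 (95% interval -1.36 to 1.33).

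Along chromosome 3 the S100 genes did not move alike. The tables list 13 S100 genes there, of which 6 are described here and 4 of the others were too low to test. *S100a13*, a cofactor in the release of growth factors, fell by 0.72 and 0.93 on the log2 scale (limma adjusted p = 0.00103 and 0.00336) and starts 3.4 kb from *S100a1*. *S100a1*, a calcium sensor of muscle, was at -0.27 in YAP1 KO livers (limma adjusted p = 0.0593) and fell by 0.42 in YKTH livers (limma adjusted p = 0.0325), a call that was lost without scaling, where its value in YAP1 KO livers turned to 0.10. *S100a16* was at -0.07 and -0.04, and at 0.28 and 0.27 without scaling. *S100a3* and *S100a5*, which flank *S100a4*, reached at most 0.119 and 0 TPM, and *S100a7a*, between *S100a6* and *S100a8*, at most 0.0995 TPM.

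**Figure D5:**
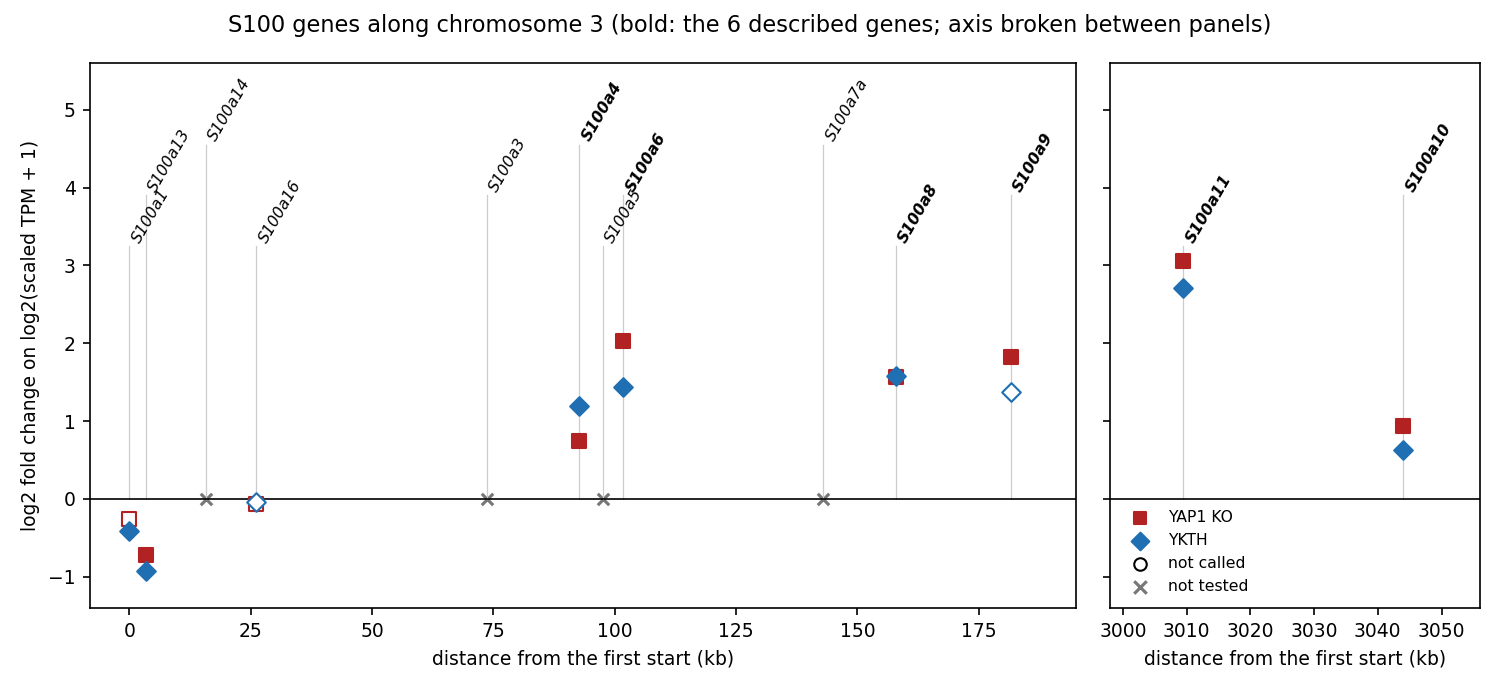
Log2 fold change of the 13 S100 genes of chromosome 3 against distance in kb from the start of S100a1, in YAP1 KO (squares) and YKTH livers (diamonds), with open symbols for genes that missed the threshold and crosses at 0 for genes not tested. The 6 genes in bold lie above 0 in both models, and S100a1 and S100a13 lie below 0.

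Of 8 other annexin genes, 5 were tested, and 3 passed upward and 1 downward in each model. *Anxa6*, a large annexin of endosomes, rose by 0.53 and 0.42, and *Anxa4*, an annexin of secretory epithelia, by 0.44 and 0.35. *Anxa7* passed in YAP1 KO livers (0.38) and *Anxa9* in YKTH livers (0.72), and whether these differed between the models was tested with no call. *Anxa11* fell by 0.59 and 0.74, a call that was lost in YAP1 KO livers without scaling. The median log2 fold change of the 5 genes was 0.38 in YAP1 KO and 0.35 in YKTH livers. Of 10 other S100 genes, 4 were tested, none passed upward, and their medians were -0.17 and -0.23.

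Among 9 receptor genes of annexins and S100 proteins, 2 of 6 tested passed upward in YAP1 KO and 4 of 7 in YKTH livers, and without scaling 3 and 7 did. *Cd14*, the coreceptor of Toll-like receptor 4, rose most, from 3.93 to 4.39 TPM in WT (C57BL/6) to 92.7 to 173 TPM in YAP1 KO livers, and from 3.13 to 4.1 TPM in WT (mixed) to 108 to 164 TPM in YKTH livers. Its log2 fold changes were 4.38 and 4.46 (limma adjusted p = 3.95e-06 and 2.75e-06). *Cd36*, a scavenger receptor that binds the S100A8 and S100A9 complex with its fatty acids, rose by 1.62 and 0.59.

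Of 14 genes of protein partners and of the plasminogen system, 7 passed upward and 1 downward in YAP1 KO livers, and 9 upward and 1 downward in YKTH livers. *Plat*, the tissue plasminogen activator, which binds the annexin A2 complex, was at 0 to 0.588 TPM in WT (C57BL/6) and 7.2 to 9.29 TPM in YAP1 KO livers, and at 0.0925 to 0.608 TPM in WT (mixed) and 4.8 to 5.14 TPM in YKTH livers. Its log2 fold changes were 2.74 and 1.97 (limma adjusted p = 7.72e-05 and 0.000116). *Plaur*, the urokinase receptor, rose by 1.46 and 1.17, and *Ahnak*, a large scaffold held by the annexin A2 complex, rose by 1.09 and 1.16. *Plg*, plasminogen itself, fell by 0.44 and 0.37 relative to the bulk of the genes, while its TPM overlapped between the groups and the calls were lost without scaling.

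The genes with levels most like *Anxa2* over the 12 libraries, by Pearson correlation of log2(scaled TPM + 1) among 12159 genes, were *Lpl* (0.998), *Trem2* (0.995), *Mtmr11* (0.995), *Cd14* (0.994) and *Tagln2* (0.994). Of the described genes, *S100a11* (0.986) and *Anxa5* (0.977) were nearest to *Anxa2*. For *S100a8* they were *H1f2* (0.955), *Ms4a7* (0.947), *Slc39a6* (0.945), *Plod2* (0.932) and *Ier3* (0.926), and *S100a9* stood at 0.879. The 12 livers of these correlations fall into knockout and WT groups, which differ in most of these genes, and the values are descriptions with no test.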

How the data were processed

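Whole-liver RNA of 12 mice was aligned by the authors to GRCm38.p6 and counted on genes in CLC Genomics Workbench, and the authors deposited TPM per gene and mouse in 2 tables. Other deposited columns hold the authors' own comparisons from edgeR within that program (fold changes, p-values and false discovery rates) and were not used. TPM was divided by a scaling factor per library (a trimmed mean of log ratios that drops, from either tail, 30% of ratios and 5% of levels), 1 was added and log2 taken, so a fold change of a low gene is understated. A gene entered a fit when 3 or more of its libraries had 1 TPM or more, and limma 3.58.1 (R 4.3.3) was used for testing (eBayes with a trend, two-sided, Benjamini-Hochberg adjustment, threshold 0.05). Each model was fitted with its own littermates, and the difference between the models over 12 libraries. The code was tested on simulated data. No library pair held identical values. Exact permutation tests used scipy 1.17.1, and near-identical transcripts were sought with blastn 2.17.0. Mouse numbers in the labels do not pair groups.

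The genes and lists were chosen with earlier results of these data known. By rule, the text names the 10 genes, at most 4 rises and 4 falls in each pair of the related-gene lists, the first 4 genes of a cell type list, the 5 genes most like *Anxa2* and *S100a8*, and *Yap1* and *Wwtr1*. *Prtn3*, *Retnlg*, *Mpo*, *Lyz2* and *Spp1* fall outside it and were chosen after their values were seen. The hepatocyte list counts 9 genes in the tables. The alternatives were a pseudocount of 0.1, every gene above 0, genes of 5 TPM or more, TPM without scaling, quantile-normalized TPM, robust shrinkage, all 12 libraries in 1 fit, and each mouse left out in turn.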

Additional observations from a re-analysis of the deposited data

Results flagged for a closer look

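The reduction of *Yap1*, given here as the check of the labels, differed between the models. The change in YAP1 KO livers minus that in YKTH livers was a log2 difference of -1.59 with a standard error of 0.24 (limma adjusted p = 0.0326), from log2 fold changes of -3.51 and -1.93. It passed in 5 of the 18 alternatives of this contrast, where limma adjusted p ran from 0.00184 to 0.146. It kept its call without YAP1 KO replicate LM74 (0.00184) or YKTH replicate LM225 (0.0175), and lost it without any other single mouse, with limma adjusted p from 0.0664 without YKTH replicate LM250 to 0.146 without WT (mixed) replicate LM226. *Yap1* was lower in 6 of 6 knockout livers than in every WT liver. All 10 annexin and S100 genes were without a call in the same contrast.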

How the results depend on the processing

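The number of annexin and S100 genes called higher was 10 in YAP1 KO livers and ran from 8 to 10 over 13 alternatives (8 to 9 with 1 mouse left out), and in YKTH livers it was 9 and ran from 8 to 10 (8 to 10 with 1 mouse left out). It stayed at 0 between the WT groups and between the models in every alternative. No gene changed direction in either model. Calls that were lost belonged to *Anxa3* and *S100a4* in YAP1 KO and to *S100a8* in YKTH livers, and *S100a9* in YKTH livers gained a call without scaling (adjusted p = 0.0315), with all 12 libraries in 1 fit (0.0232) and without YKTH replicate LM250 (0.00871), from limma with Benjamini-Hochberg adjustment. *S100a4* in YAP1 KO livers was also lost with no filter (0.0722) and with quantile normalization (0.0852). The minimum of 5 TPM removed *S100a8* and *S100a9* from the YKTH comparison. Scaling moved the median of all tested genes from 0.28 to -0.04 in YAP1 KO and from 0.24 to -0.04 in YKTH livers, and without it 10 of the 10 genes were called higher in each model. Shares of the neutrophil pair did not depend on scaling, which cancels within a library. No paired analysis was possible because the groups compared share no replicate numbers. TPM keeps no read counts, so counting error at the low levels of *Anxa1*, *Anxa3*, *S100a4*, *S100a6* and *S100a8* is unknown.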
